A study of Mus musculus with 11 samples.

Results

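The genes described here were 10 mouse genes of transforming growth factor beta (TGF-β) and activin signalling, chosen by their symbols: the ligand genes Tgfb1, Tgfb2 and Tgfb3, the activin and inhibin subunit genes Inhba and Inhbb, the receptor genes Tgfbr1, Tgfbr2 and Tgfbr3, the inhibitory Smad gene Smad7, and Tgfbi, a matrix protein gene named for its induction by TGF-β. They were 10 of the 20837 genes named on the array. Their 13 probes all passed the filter on dim probes, and each gene is given by its brightest probe. All values are log2 signals after background correction and quantile normalization, so a difference of 1 is a 2-fold change.

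The study used arrays to compare otospheres with the tissue they came from and with pluripotent cells. Otospheres are floating spheres that grow from dissociated cochlear cells and are used as a source of inner ear stem and progenitor cells. Cochlear sensory epithelium (CSE), which carries the hair cells and supporting cells of hearing, had been dissected from ICR mice aged 1 day, with 10 mice and 20 cochleae pooled per preparation. Otospheres were grown from such tissue in suspension with bFGF at 10 ng/ml and IGF1 at 50 ng/ml, passaged once after 4 to 5 days, and strained so that solid spheres were kept. Mouse embryonic stem cells (ESCs) at passage 13 were of 2 lines, G4-2 for the first array and D3 for the second, each on a slide of its own, so line, slide and sample cannot be told apart within the ESCs. The ESCs were grown on gelatin with 10% fetal bovine serum and LIF. Culture medium and cell type therefore cannot be told apart in the comparisons with ESCs. The labels named no engineered allele for any group, which does not show that none was present.

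In this pathway, a dimeric ligand brings together type II and type I receptor kinases, and the type I receptor phosphorylates Smad2 and Smad3, which enter the nucleus with Smad4. TGF-β ligands are secreted in a latent complex and act once they are released from it. Activins are dimers of the subunits that Inhba and Inhbb encode, and an inhibin pairs one of these subunits with the product of Inha. In the developing cochlea, activin A is known to promote the maturation of hair cell progenitors and its antagonist follistatin to delay it.

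There were 11 arrays on 2 slides: 1 ESC, 3 otosphere and 2 CSE arrays on the first, and 1 ESC, 3 otosphere and 1 CSE array on the second. The arrays OS1 and OS2 differed by less than the noise between spots of 1 probe, as did OS4 and OS5 (0.946 and 0.433 times that noise over 17210 bright probes, against at least 1.72 for the other pairs), so each pair was averaged and counted as 1 sample. The groups then held 4 otosphere samples (OS1/2, OS3, OS4/5 and OS6), 3 CSE samples and 2 ESC samples. Per array, 55.1% to 71.6% of the spots were well above background. Precision is limited by how few arrays there were, and since the labels do not say which samples came from separate cultures or animals, the p-values measure the spread between these samples, which may be technical. Of 5 ESC markers, Pou5f1, Zfp42, Dppa5a and Fgf4 were higher in ESCs than in both other groups, while the brightest Nanog probe was not (a dimmer one was 12.50 and 10.58 in ESCs and 5.41 to 5.66 in otospheres). Against CSE, otospheres were lower in 3 of 5 hair cell, 7 of 8 supporting cell, 3 of 6 endothelial, 4 of 5 macrophage and 3 of 5 erythroid markers, and no marker of these lists was higher (limma; 22 lower and 0 higher of 29 by unadjusted p). By the same test, 10.2% of all genes were lower and 7.04% higher (18.1% and 14% by unadjusted p). In the other lists, 1 of 5 glial markers was higher and 3 were lower, and no mesenchymal marker of 8 passed the test. In bulk samples, fewer cells of a type and less RNA per cell cannot be told apart.

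Tgfb1, Inhbb and Tgfbr2 were higher in otospheres than in CSE, and none of the 10 genes was lower. Inhbb, the subunit of activin B, differed by 2.67 ± 0.71 on the log2 scale (SE, a 6.34-fold difference), Tgfb1 by 1.39 ± 0.26 and Tgfbr2, the type II TGF-β receptor, by 1.11 ± 0.25. Among all genes, 7.04% were higher and 10.2% were lower in otospheres at the same threshold (limma, adjusted p under 0.05). By unadjusted p, 4 of the 10 genes were higher and 0 were lower, against 14% and 18.1% of all genes. The median difference of the 10 genes was 0.40, against -0.01 over all 18942 genes tested.

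**Figure D1:**
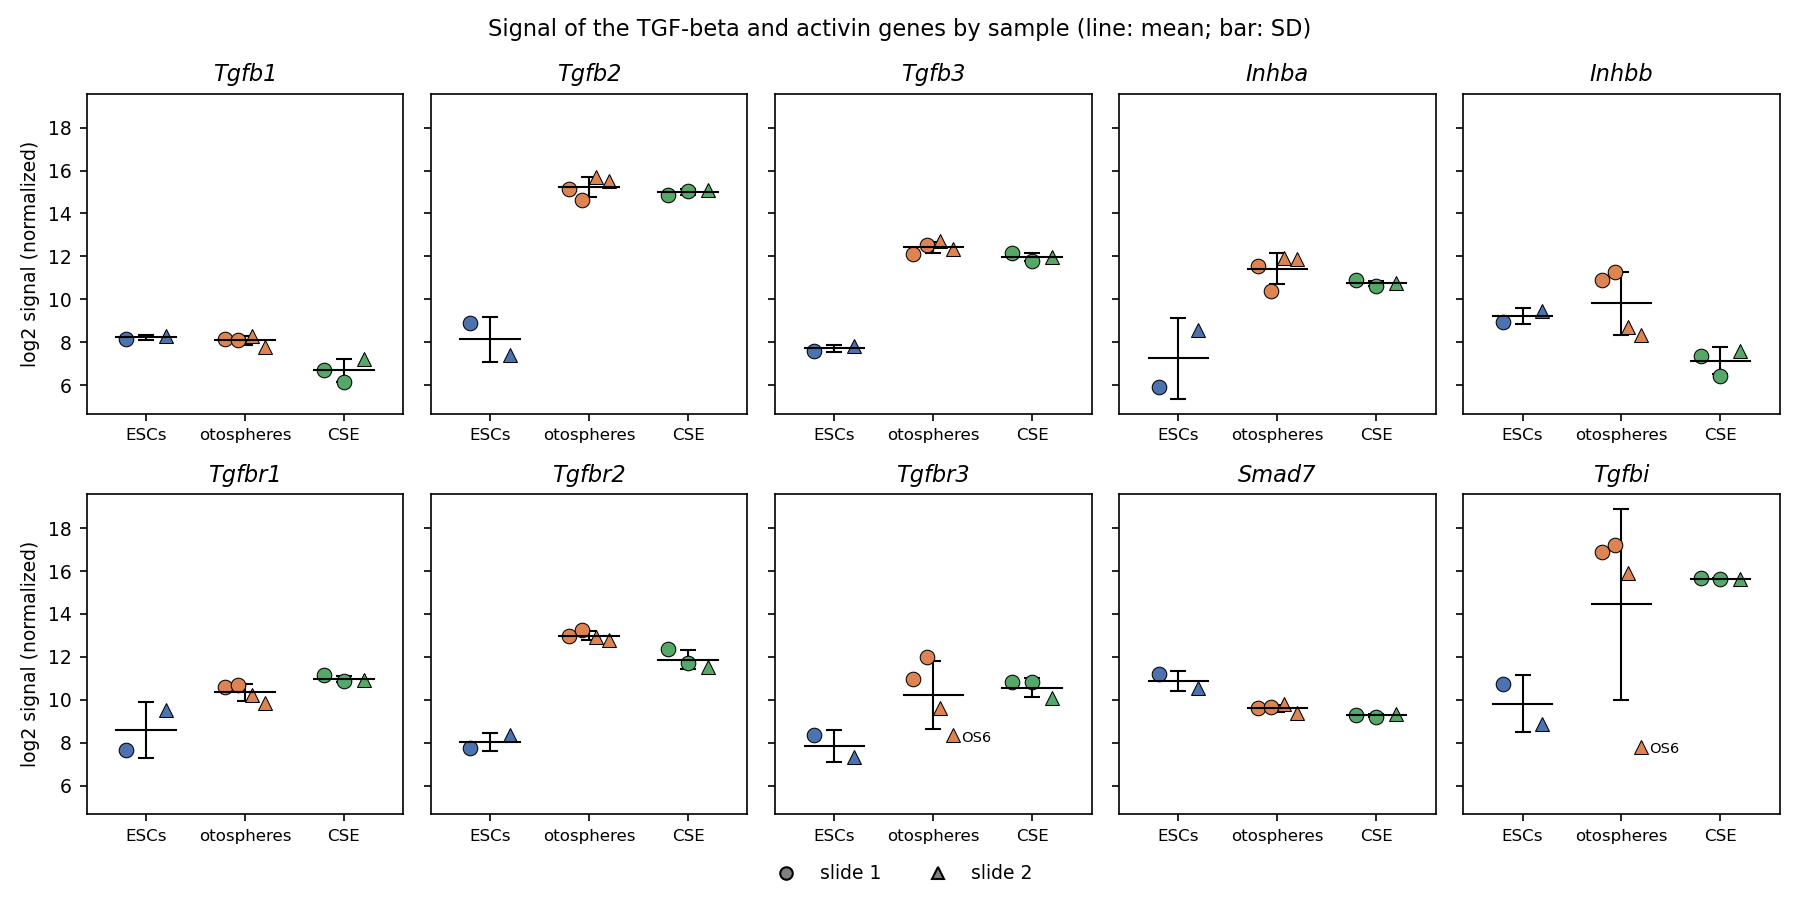
Normalized log2 signal of the 10 genes in each sample of ESCs, otospheres and CSE, with circles for the first slide and triangles for the second. Lines are group means and bars are SDs (n = 2, 4 and 3). Tgfb2, Tgfb3 and Tgfbr2 were far above the ESCs in every otosphere and CSE sample, and in the panel of Tgfbi the OS6 sample lay at 7.83 while the other otospheres lay at 15.92 to 17.20.

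Tgfb1 (probe A_51_P390715), which encodes the most widely expressed TGF-β ligand, had a log2 signal of 8.16 in OS1/2, 8.11 in OS3, 8.30 in OS4/5 and 7.77 in OS6. In CSE it was 6.71, 6.14 and 7.24. Every otosphere sample was thus above every CSE sample, and the difference passed the test (limma, adjusted p = 0.00947). It was larger among the samples of the first slide, at 1.71, than among those of the second, at 0.79. Macrophages are known to make Tgfb1, and the log2 of the summed signal of their markers was 10.96 to 12.07 in otospheres, 12.54 to 12.92 in CSE and 11.15 to 11.24 in ESCs. The brightest of these markers in otospheres and ESCs was Csf1r, at 10.77 to 11.99 in otospheres and 11.06 and 10.95 in ESCs. C1qa was well above background on no otosphere or ESC array, and Tyrobp on 1 otosphere array and no ESC array. Of 5 markers, 4 were lower in otospheres than in CSE and Ptprc did not pass the test, and their part in the Tgfb1 difference was not tested.

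Inhbb (probe A_55_P2096422) was 10.89 in OS1/2 and 11.26 in OS3, but 8.73 in OS4/5 and 8.35 in OS6. The CSE samples were at 7.37, 6.44 and 7.61, below all otospheres. The otospheres of the first slide were thus above those of the second, which were themselves above CSE. The second slide minus the first was -2.54 in otospheres, 0.71 in CSE and 0.52 in ESCs. No otosphere sample was on both slides, so slide and sample cannot be told apart. Against CSE the difference was 4.17 within the first slide and 0.93 within the second, and over all samples its adjusted p was 0.0462. That call was lost in 10 of 19 alternative settings, among them those without either ESC sample, OS1/2, OS3, CSE1, CSE2 or CSE3 (adjusted p = 0.0600 to 0.145).

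Tgfbr2 (probe A_51_P450573) was 12.97, 13.27, 12.91 and 12.78 in OS1/2, OS3, OS4/5 and OS6, and 12.36, 11.71 and 11.54 in the CSE samples. The otospheres lay close together and all above CSE (adjusted p = 0.0213). A second, dimmer probe differed by 1.93 ± 0.26 (SE, adjusted p = 0.00195). The call of Tgfbr2 was lost in 4 of 19 alternative settings, among them those without OS4/5 (adjusted p = 0.0540), CSE2 (0.0730) or CSE3 (0.0894).

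The sequences before the start sites of these genes are shown because they were the members higher in otospheres than in CSE. RefSeq promoters (GRCm38.p6) were at hand for 7 of the 10 genes, and Tgfb3, Tgfbr3 and Smad7 were not among them. Each line gives the 250 bases before the annotated start, read along the gene's strand, with capitals for CAGAC (the core of the CAGA box that Smad3 and Smad4 bind) and GGGCGG (the GC box that Sp1 binds), each searched on both strands, and for TGANTCA (the AP-1 element). The windows are chr7:25686752-25687001 on the plus strand for Tgfb1, chr1:119422249-119422498 on the minus strand for Inhbb and chr9:116175364-116175613 on the minus strand for Tgfbr2.
Tgfb1: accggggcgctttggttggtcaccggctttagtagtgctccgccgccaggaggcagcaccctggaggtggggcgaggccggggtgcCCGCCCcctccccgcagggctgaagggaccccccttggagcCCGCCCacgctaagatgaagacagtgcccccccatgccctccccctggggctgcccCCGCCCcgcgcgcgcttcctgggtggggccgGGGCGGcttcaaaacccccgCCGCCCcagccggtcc
Inhbb: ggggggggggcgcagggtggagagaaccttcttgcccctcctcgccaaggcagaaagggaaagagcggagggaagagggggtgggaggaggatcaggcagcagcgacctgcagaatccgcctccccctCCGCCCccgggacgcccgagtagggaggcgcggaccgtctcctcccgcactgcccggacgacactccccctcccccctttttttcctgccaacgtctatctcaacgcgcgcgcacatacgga
Tgfbr2: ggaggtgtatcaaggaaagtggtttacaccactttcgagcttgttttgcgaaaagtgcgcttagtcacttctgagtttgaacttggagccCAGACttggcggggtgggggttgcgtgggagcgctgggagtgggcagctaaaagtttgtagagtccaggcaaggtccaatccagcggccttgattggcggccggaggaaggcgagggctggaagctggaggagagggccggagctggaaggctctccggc

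In these letters, Tgfb1 held 5 GC boxes and no CAGAC, Inhbb held 1 GC box and no CAGAC, and Tgfbr2 held 1 CAGAC and no GC box. CAGAC was found in 42.2% of the 32851 promoters of the table and GGGCGG in 32.7%, over windows of the same length. TGANTCA, found in 6.75% of all promoters, was in none of the 3. The share of G or C was 75.2% before Tgfb1, 68.0% before Inhbb and 58.4% before Tgfbr2, against a median of 52.4%. A match describes the letters and not a bound site.

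The other 7 genes did not pass the test between otospheres and CSE. Tgfb2 (probe A_65_P10913) was 15.15, 14.62, 15.71 and 15.49 in the otospheres and 14.84, 15.04 and 15.11 in CSE, and the groups overlapped (difference 0.25 ± 0.37, SE, adjusted p = 0.820). Tgfb3 (probe A_51_P124748) was 12.12, 12.54, 12.72 and 12.33 in the otospheres and 12.15, 11.79 and 11.95 in CSE, a difference of 0.46 ± 0.19 (adjusted p = 0.180). The lowest otosphere sample of Tgfb3 lay just below the highest CSE sample. Inhba (probe A_51_P239750), the subunit of activin A, was 11.54, 10.38, 11.91 and 11.90 in the otospheres and 10.88, 10.62 and 10.74 in CSE (difference 0.69 ± 0.60, adjusted p = 0.629). OS3 was the otosphere sample below CSE, and the other 3 were above it.

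Tgfbr1 (probe A_55_P2137206), the type I receptor of TGF-β, was 10.60, 10.71, 10.23 and 9.83 in the otospheres and 11.14, 10.89 and 10.94 in CSE. The groups did not overlap, but the difference of -0.64 ± 0.40 did not pass the test (SE, adjusted p = 0.436), and a dimmer probe of Tgfbr1 had a difference of 0.33, of the opposite sign. Smad7 (probe A_51_P403636), which encodes a Smad that blocks the type I receptor and is itself induced by the pathway, was 9.61, 9.65, 9.79 and 9.40 in the otospheres and 9.28, 9.20 and 9.35 in CSE. Again the groups did not overlap, by a narrow margin, and the difference was 0.34 ± 0.19 (adjusted p = 0.366). With Tgfb1, Inhbb, Tgfbr2 and Smad7, 4 of the 10 genes were above CSE in every otosphere sample, and Tgfbr1 was below it in every one. Among all genes, 13.9% lay above and 18.8% below without overlap.

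**Figure D2:**
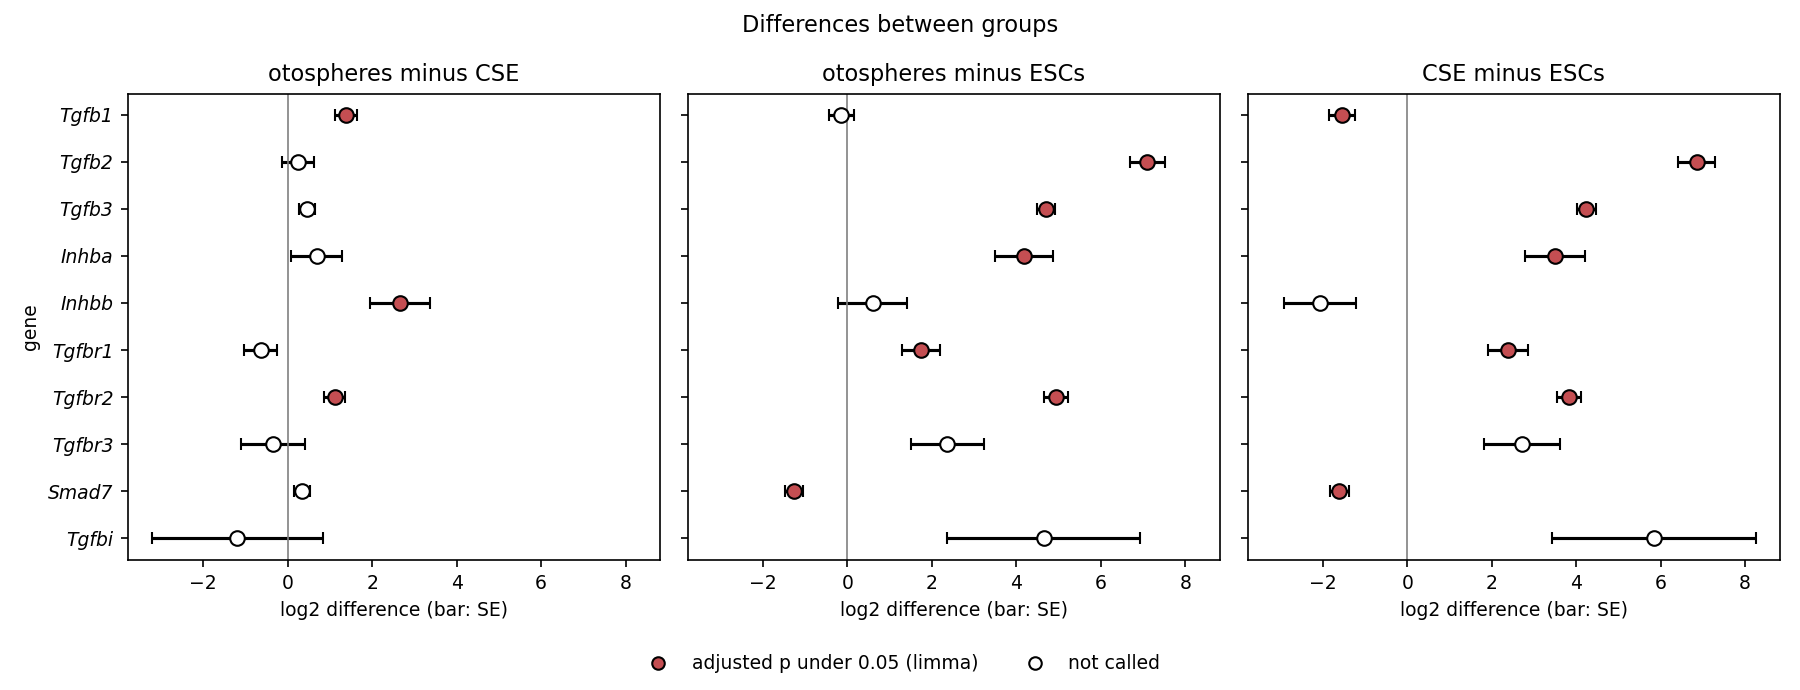
Log2 differences of the 10 genes between otospheres and CSE, otospheres and ESCs, and CSE and ESCs, each with its SE from the limma fit, on 1 scale. Filled points passed an adjusted p of 0.05. Tgfb1, Inhbb and Tgfbr2 were the filled points between otospheres and CSE, and against ESCs the differences of Tgfb2 were 7.10 and 6.86.

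Tgfbi and Tgfbr3 varied more among the otospheres (SD 4.45 and 1.59) than the means of otospheres and CSE differed. Tgfbi (probe A_51_P212754) was 16.87, 17.20 and 15.92 in OS1/2, OS3 and OS4/5, but was 7.83 in OS6, below both ESC samples (10.75 and 8.87). The CSE samples were nearly equal, at 15.66, 15.63 and 15.65. With OS6, otospheres minus CSE was -1.19 ± 2.02 (SE, adjusted p = 0.849), and without OS6 it was 1.02 (adjusted p = 0.313). Tgfbr3 (probe A_65_P16059), the co-receptor betaglycan, was 10.96, 11.98, 9.60 and 8.34 in OS1/2, OS3, OS4/5 and OS6, and 10.82, 10.82 and 10.08 in CSE. OS6 was again the lowest, and OS4/5, of the same slide, was also below CSE. The difference from CSE was -0.35 ± 0.76 with OS6 (adjusted p = 0.890) and 0.27 without it (adjusted p = 0.920).

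Of 18936 genes with a value in every otosphere sample, 3.5% had OS6 more than 1 below the lowest of the other otospheres. Among the mesenchymal markers these were 6 of 8, namely Pdgfra, Pdgfrb, Col1a2, Col3a1, Tbx18 and Emilin2. Pdgfrb, a receptor of mesenchymal and perivascular cells, was 11.59, 11.92 and 10.18 in OS1/2, OS3 and OS4/5 and 5.58 in OS6. Col3a1, a fibrillar collagen gene, was 13.96, 15.59 and 11.82 in those 3 samples and 6.51 in OS6, and Lum, a proteoglycan gene of the same list, was 15.05 in OS6 against 14.39 to 15.24 in the others. The log2 of the summed signal of all 8 markers was 16.49, 17.14, 15.77 and 15.08 in OS1/2, OS3, OS4/5 and OS6, 17.30 to 17.97 in CSE and 11.05 to 11.30 in ESCs, and in the ESCs Lum, Pou3f4 and Tbx18 were not well above background. In OS6 the sum was nearly all Lum, and the next brightest marker there, Col1a2, was at 8.61. All 8 markers were well above background on at least 1 otosphere array. The part of these cells in the values of Tgfbi and Tgfbr3 was not tested. Tgfbi was the 1 gene of 18936 with OS6 more than 8 below the other otospheres, a limit chosen after its value was seen.

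**Figure D3:**
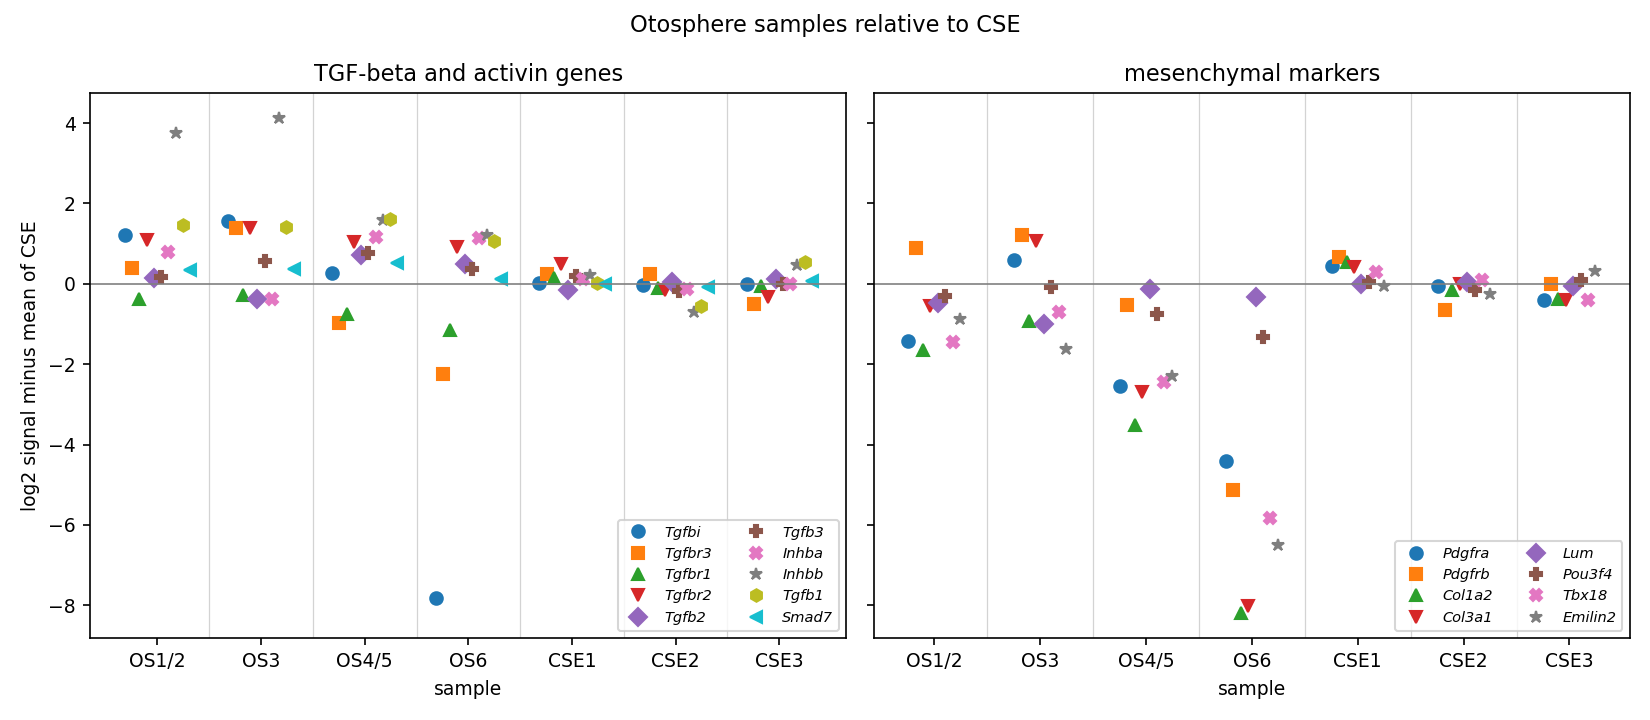
Log2 signal of each otosphere and CSE sample minus the mean of the 3 CSE samples, for the 10 genes (left) and for 8 mesenchymal markers (right); points of a sample are spread sideways for legibility. In OS6, Tgfbi and 6 of the 8 markers lay far below the other otospheres, while Tgfb1, Tgfb2, Tgfb3, Inhba and Inhbb stayed above the CSE mean.

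Against ESCs, 5 of the 10 genes were higher in otospheres and Smad7 was lower. Among all genes, 18.2% were higher and 20.2% lower, 38.4% in all. Tgfb2 had the largest difference of the 10, 7.10 ± 0.42 on the log2 scale (SE, adjusted p = 8.83e-06), from 8.88 and 7.40 in the ESC samples. Tgfbr2, at 7.74 and 8.34 in ESCs, was higher by 4.94 ± 0.28 (adjusted p = 7.24e-06), and Tgfb3, at 7.60 and 7.84, by 4.71 ± 0.21 (adjusted p = 2.29e-06). All otosphere samples of these genes were above both ESC samples by a wide margin. The median difference of the 10 genes was 3.27, against -0.01 over all genes.

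Inhba was 5.91 in the G4-2 ESCs and 8.59 in the D3 ESCs, and the otospheres were higher by 4.18 ± 0.68 (SE, adjusted p = 0.00185). Tgfbr1 also differed between these ESC samples, at 7.69 and 9.51, and was higher in otospheres by 1.74 ± 0.45 (adjusted p = 0.0194). For Tgfbr1 the difference was 0.83 without the G4-2 sample, where it did not pass the test (adjusted p = 0.127). Smad7 ran the other way: it was 11.21 and 10.57 in ESCs, above every otosphere, a difference of -1.28 ± 0.21 (adjusted p = 0.00210).

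The other 4 genes did not pass the test between otospheres and ESCs. Tgfb1 was nearly level, at 8.14 and 8.32 in ESCs, with a difference of -0.15 ± 0.29 (SE, adjusted p = 0.765). Inhbb, at 8.95 and 9.47 in ESCs, lay between the otospheres of the first slide, which were above it, and those of the second, which were below (difference 0.60 ± 0.81, adjusted p = 0.647). Tgfbr3, at 8.37 and 7.34 in ESCs, had a difference of 2.37 ± 0.86 (adjusted p = 0.0737), which passed the test without OS6 (2.99, adjusted p = 0.0108). For Tgfbi the difference was 4.64 ± 2.29 with OS6 (adjusted p = 0.177) and 6.85 without it (adjusted p = 1.23e-04). The count of genes higher in otospheres than in ESCs was thus 7 without OS6.

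CSE differed from ESCs in 7 of the 10 genes: 5 were higher in CSE, and Tgfb1 and Smad7 were lower. Among all genes, 20.7% were higher and 19.7% lower, 40.5% in all. Tgfb2 was higher by 6.86 ± 0.44 (SE, adjusted p = 1.49e-05), Tgfb3 by 4.24 ± 0.22 (adjusted p = 5.34e-06) and Tgfbr2 by 3.83 ± 0.30 (adjusted p = 3.84e-05). These genes encode a pair of TGF-β ligands and the type II receptor. Inhba was higher by 3.50 ± 0.72 (adjusted p = 0.00604) and Tgfbr1 by 2.39 ± 0.48 (adjusted p = 0.00543). Tgfb1 was lower by a log2 difference of -1.53 ± 0.31 (adjusted p = 0.00549) and Smad7 by one of -1.61 ± 0.22 (adjusted p = 8.01e-04). Each of the 3 CSE samples was below both ESC samples for these genes.

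Inhbb had a difference of -2.07 ± 0.85 between CSE and ESCs (SE, adjusted p = 0.108), Tgfbr3 one of 2.72 ± 0.91 (adjusted p = 0.0525) and Tgfbi one of 5.83 ± 2.41 (adjusted p = 0.108). The last was the same size without OS6 and then passed the test (adjusted p = 2.18e-04), since OS6 enters the spread that the 3 groups share. Tgfbr3 also passed without OS6 (adjusted p = 0.0151). All comparisons with ESCs shared the same 2 ESC samples. Over the 3 groups together, 8 of the 10 genes passed the F-test, all but Tgfbr3 and Tgfbi, as did 48.1% of all genes.

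Ordered by level, Tgfb2, Tgfb3 and Inhba had the same mean order, otospheres, then CSE, then ESCs, with the first pair not passing the test. Tgfbr2 had that order with each neighbour different. For Tgfbr1 CSE was highest by its mean and ESCs lowest, and otospheres and CSE were not separated by the test. Tgfbr3 and Tgfbi had the same order of means, with no neighbours separated by the test. Tgfb1 and Inhbb were lowest in CSE, and ESCs and otospheres were not separated by the test; for Inhbb neither were ESCs and CSE. Smad7 was highest in ESCs, and its otosphere and CSE levels were not separated by the test.

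The rest of the pathway was read from 58 other genes, of which 57 were measured (the probe of Bambi was too dim). Between otospheres and CSE, 15 were higher in otospheres and 7 lower, against 17.3% of all genes changed in either direction. Most of those that were higher were in the list of target genes, where 9 of 13 were higher and Col1a1 was lower. Of all genes, 7.04% were higher and 10.2% lower. The list was chosen with earlier results of these data known, so its count and median are a description only. Smad7 and Tgfbi, described above as induced by the pathway, are outside this list and did not pass the test (differences 0.34 and -1.19). The median difference of the target genes was 2.46, against -0.01 over all genes. Without OS6, 16 of the 57 were higher and 7 lower. Leaving out 1 sample at a time, the count of higher genes ran from 10 (without CSE1) to 17 (without ES1).

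Among the targets, Tagln and Acta2, which encode actin-binding transgelin and smooth muscle actin, had the largest differences, 6.23 ± 0.99 and 5.59 ± 1.16 (SE). Tagln was 14.92 in OS1/2, 13.91 in OS3, 17.75 in OS4/5 and 17.69 in OS6, and 10.38, 9.01 and 10.11 in CSE. Acta2 was 11.58, 9.65, 14.82 and 14.52 in the same otospheres and 7.09, 7.11 and 6.96 in CSE. In both, OS4/5 and OS6, of the second slide, were above OS1/2 and OS3, of the first, and every otosphere was above CSE. Slide and sample cannot be told apart in this split. Ccn2, which encodes connective tissue growth factor, followed the same order of samples, at 14.72, 14.08, 17.23 and 17.06 against 12.03, 11.01 and 13.53 in CSE (difference 3.58 ± 0.87).

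Cdkn2b, a cell cycle inhibitor gene induced by TGF-β, was 12.76, 12.87, 11.67 and 11.04 in OS1/2, OS3, OS4/5 and OS6 and 7.49, 6.51 and 6.98 in CSE (difference 5.10 ± 0.55, SE). In Cdkn2b OS6 was the lowest otosphere sample, unlike in Tagln and Acta2. Further targets that were higher in otospheres were Bhlhe40 by 2.86, Junb by 2.46, Cdkn1a by 2.29 and the fibronectin gene Fn1 by 1.33. These genes also respond to other signals, such as growth factors and stress. Col1a1 was 8.25, 8.71, 6.24 and 5.08 in the otospheres and 10.94, 11.75 and 10.55 in CSE (difference -4.01 ± 0.81), and OS6 was again the lowest. Snai1, Snai2 and Ldlrad4 did not pass the test, with differences of -0.16, -0.74 and 0.47.

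**Figure D4:**
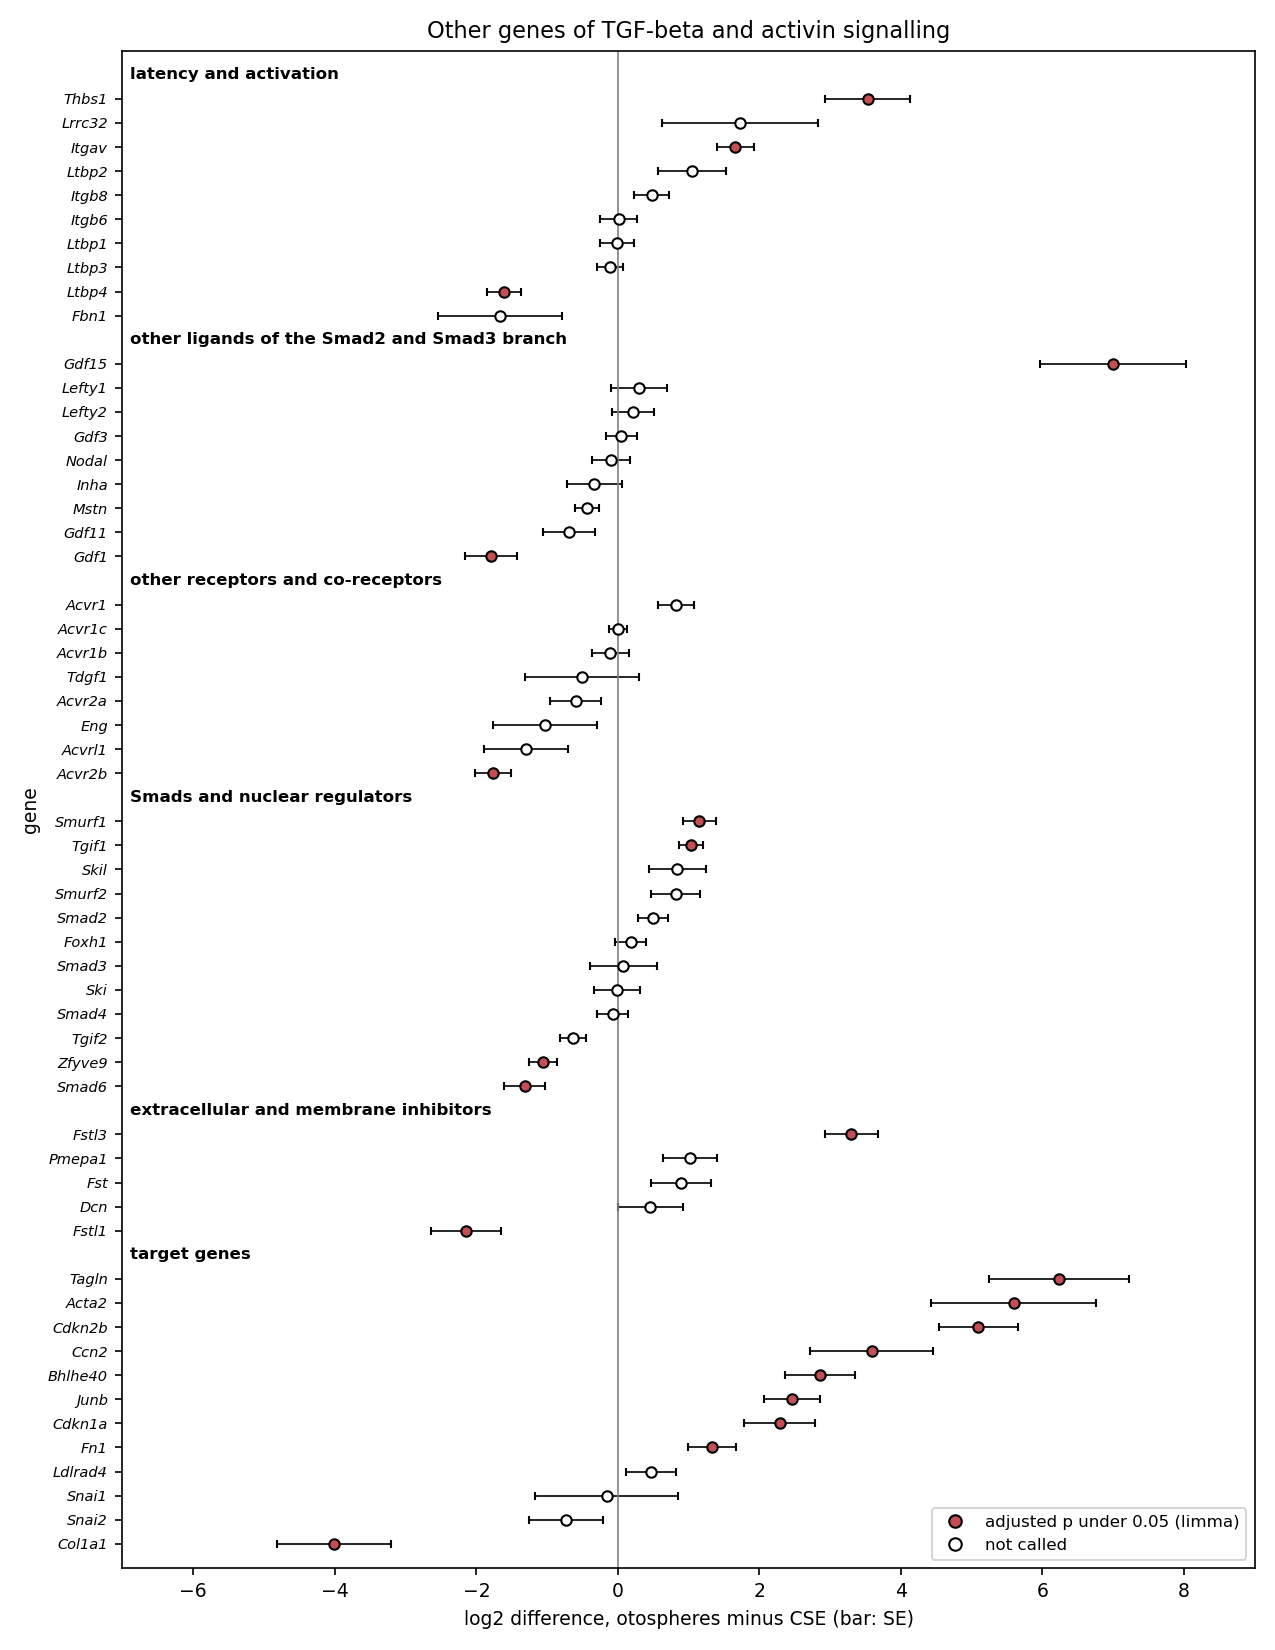
Log2 difference between otospheres and CSE, with its SE, for the other genes of the pathway that are reported here, grouped by role. Filled points passed an adjusted p of 0.05, which 8 of the target genes shown did above 0 and Col1a1 did below 0.

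In the genes that store and release latent TGF-β, 2 of 10 were higher in otospheres than in CSE and 1 was lower. Of all genes, 7.04% were higher and 10.2% lower. Thrombospondin 1 (Thbs1), which can activate latent TGF-β, was 14.54, 13.58, 16.12 and 15.51 in the otospheres and 11.32, 10.84 and 12.06 in CSE (difference 3.53 ± 0.60, SE). The integrin gene Itgav, whose product binds latent TGF-β, was higher by 1.66 ± 0.26. Ltbp4, which encodes a latent TGF-β binding protein, differed by -1.61 ± 0.24, with otospheres at 11.58, 11.54, 12.19 and 11.63 and CSE at 13.34 ± 0.31 (SD, n = 3). Ltbp1, Ltbp3 and Itgb6 were close to equal in both groups, with differences of -0.01, -0.11 and 0.01. Compared with ESCs, 7 of the 10 were higher in otospheres, against 18.2% of all genes, and Ltbp4 was lower (-1.58 ± 0.27, adjusted p = 0.00235). In CSE 5 of the 10 were higher than in ESCs and none was lower, against 20.7% and 19.7% of all genes (limma; 7 higher and 0 lower by unadjusted p). Itgb6 was not well above background on either ESC array and was at least 35.5-fold higher in otospheres.

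Among the secreted and membrane inhibitors, follistatin-like 3 (Fstl3), which binds activin, was higher in otospheres by 3.30 ± 0.37 (SE), at 10.20, 10.33, 11.29 and 11.70 against 7.60, 7.51 and 7.62 in CSE. Follistatin itself (Fst) was 12.01, 11.05, 12.52 and 13.05 in otospheres and 11.34, 11.44 and 11.01 in CSE, and its difference of 0.89 ± 0.43 did not pass the test. OS3 was at the CSE level for Fst and the other 3 otospheres were above it. Fstl1 differed by -2.15 ± 0.49, and its lowest otosphere value, 13.61, was in OS6.

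Among other ligands, Gdf15, a divergent family member known as a stress-induced cytokine, was 128-fold higher in otospheres by the fitted means, at 12.36, 10.35, 13.88 and 15.26 against 5.98, 5.41 and 6.51 in CSE. Gdf1 was lower, with a difference of -1.79 ± 0.36. The ligands that keep the Smad2 and Smad3 branch active in the early embryo, and their feedback inhibitors, were high in ESCs: Nodal was 13.16 and 12.22 there and 6.39 to 7.11 in otospheres, and Lefty1 was 13.40 and 12.57 against 5.62 to 7.02. The groups were far apart in both genes. Inha, which turns an activin subunit into an inhibin, was 8.72 to 9.53 in otospheres and 9.19 to 10.03 in CSE, and its difference of -0.34 ± 0.39 did not pass the test.

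The activin receptor gene Acvr2b was the 1 other receptor of 8 that differed between otospheres and CSE, against 17.3% of all genes. It was 10.04, 10.37, 10.58 and 11.11 in otospheres and 12.17, 12.13 and 12.59 in CSE, a difference of -1.77 ± 0.25 (SE). Acvr2a, the other type II activin receptor, had a difference of -0.60 ± 0.36 that did not pass the test, and Acvr1c was well above background on no array of the 3 groups. In the nucleus and cytoplasm, the signalling Smads Smad2, Smad3 and Smad4 did not pass the test, with differences of 0.49, 0.08 and -0.07. Tgif1, a corepressor of Smads, was higher by 1.03 ± 0.17 and Smurf1, a ubiquitin ligase that acts on Smads and receptors, by 1.15 ± 0.23. Smad6, an inhibitory Smad mainly of the BMP branch, was lower, with a difference of -1.31 ± 0.29, and so was Zfyve9, which anchors Smads at endosomes, with one of -1.06 ± 0.20.

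For each of the 10 genes, the genes with the most similar log2 signal over the 9 samples were found by Pearson's r, which is a description across 3 groups and carries no test. Tgfb3 was most like Wnt5a (r = 0.997), a secreted Wnt ligand gene, and App (0.996). Tgfb2 was most like Gas2, Sorcs2 and Pgm5 (0.993 to 0.996), Tgfbr2 most like Fndc3b, Rhoq and Ash1l (0.989 to 0.992), Tgfbr1 most like Ogfrl1, Dync2h1 and Zfp260 (0.992 to 0.995), and Inhba most like Ube2e1, Arfgef1 and Spin4 (0.987 to 0.997). These genes follow the gap between ESCs and the cochlear samples. Inhbb was most like Wnt16, Myd88 and Ecm1 (0.959 to 0.969) and Tgfb1 most like Jade2, Nfkbib and Ubl4a (0.961 to 0.971). Tgfbi was most like Fbxl13, Pdgfrb and Tmeff2 (0.973 to 0.974), Tgfbr3 most like Cblb, Ppic and Bicc1 (0.983 to 0.987), and Smad7 most like Cacna1s, Wdr20rt and Wdr93 (0.983 to 0.986).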

How the data were processed

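Cy3-labelled RNA of 11 samples, 50 or 100 ng each (which sample had which amount is not given in the sources used here), had been hybridized to single-colour Agilent mouse arrays. As deposited, each scanner file lists a spot's median signal intensity and its local background intensity, not normalized between arrays, from Feature Extraction 10.7.3.1 (the submitters' processing notes). A separate table by the authors holds log2 values that they had background-corrected and quantile-normalized. For probes spotted 10 times, as those of Tgfb1 and Tgfb3 were, its log2 values were 0.0996 times those of the scanner files (median). It was therefore an alternative, and the scanner files gave the main values. The plan named mean spot signals, and the median was taken because it is what the files hold.

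Background correction (limma 3.58.1, R 4.3.3) used normexp and an offset of 16, and log2 values were then quantile-normalized across the 11 arrays. Spots of a probe were averaged, leaving out outlier flags. To be kept, a probe had to exceed by 10%, on 2 or more arrays, the level below which 95% of 308 negative control spots lay, which 47997 of 55681 probes did. RefSeq accessions named 27435 probes, and the brightest kept probe of a gene stood for it. No spot was saturated. Pairs of arrays within spot noise were averaged, and lmFit and eBayes were fitted to 9 samples with 1 mean per group. P-values were adjusted over all kept probes (Benjamini-Hochberg), with 0.05 as the threshold. The code was tested on simulated data. Bounds written as at least N-fold use the lowest signal among probes well above background.

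Named genes were the 10 members, pathway genes past the threshold between otospheres and CSE or in both comparisons with ESCs, the largest of each list otherwise, and the 3 genes most like each member. The members and gene lists were chosen with earlier results of these data known, and a few pathway genes that did not pass are named as examples of their list. Of the genes this rule names, 2 are not reported here by name or value, though they stay in the counts and medians. Marker lists covered embryonic stem, hair, supporting, mesenchymal, endothelial, macrophage, glial and erythroid cells. Of 5 glial markers, 1 was higher and 3 were lower in otospheres than in CSE, and no mesenchymal marker of 8 passed the test (limma; 4 were lower by unadjusted p). Alternatives were the offset, the scanner's processed intensity (background-subtracted, as deposited) scaled to its 75th percentile, the authors' table, the filter, single arrays, slide and replicate blocks, the mean of a gene's probes, each sample left out, and values within slides.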

Additional observations from a re-analysis of the deposited data

Results flagged for a closer look

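Among 67 genes of the pathway, whose 4 otosphere samples were each tested with Dixon's ratio, 2 had a sample farther from the others than its 95% critical value allows; chance alone sets apart about 1 in 20 such groups. Tgfbi had a ratio of 0.864, with OS6 at a log2 signal of 7.83 and the other otospheres at 15.92 to 17.20. Ltbp4 had a ratio of 0.867, with OS4/5 at 12.19 and the others at 11.54 to 11.63. In Ltbp4 all otospheres stayed below the CSE samples, at 13.34 ± 0.31 (SD, n = 3).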

How the results depend on the processing

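Over 19 alternatives with a test, the differences from ESCs of Tgfb2, Tgfbr2, Inhba and Smad7 passed the test every time, in otospheres and in CSE. Tgfb1 between otospheres and CSE passed in 18, all but the deposited table (0.15, adjusted p = 0.679), where probes spotted 10 times have shrunken values. That table also gave 1 gene lower in CSE than in ESCs instead of 2, and ended both calls of Tgfb3 against ESCs (0.48, adjusted p = 0.0781, in otospheres and 0.43, adjusted p = 0.124, in CSE), which passed in the 18 other alternatives. Tgfbr2 between otospheres and CSE passed in 15 and Inhbb in 9. Leaving out 1 sample at a time, 1 to 3 of the 10 genes were higher in otospheres than in CSE, with 1, Tgfb1, without CSE2 or without CSE3; 3 to 7 other pathway genes were lower, with 3 without CSE1. Otospheres minus CSE then ranged from -0.94 to 0.27 for Tgfbr3 and from -2.11 to 1.02 for Tgfbi, both above 0 without OS6 alone. Scaling to the 75th percentile moved the median of all genes by -0.26 against ESCs and turned no direction of the 10 genes. Deviations of same-numbered arrays correlated from -0.39 to 0.36. With so few arrays per group, these values cannot decide whether replicate numbers paired the samples, and the main fit took them as unpaired. With the replicate number as a block over every array, in which OS4, OS5 and OS6 have no partner, 8 of the 10 genes were higher in otospheres than in ESCs, and otospheres minus CSE was -0.024 for Tgfb2, 0.73 for Tgfbr3 and 1.34 for Tgfbi. Low signal limits the dimmer probe of Tgfbr1, which was well above background on 1 of 2 ESC arrays.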
